A study of Arabidopsis thaliana with 15 samples.

Results

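The linker histone H1 genes of Arabidopsis thaliana are 3 loci, H1.1 (AT1G06760), H1.2 (AT2G30620) and H1.3 (AT2G18050, listed as HIS1-3 in the reference gene table). They were taken by locus from the names of the probe sets, and all 3 were among the 27981 loci measured. AT2G18050 and AT2G30620 had 2 probe sets each and AT1G06760 had 1, and the probe set with the highest mean over the 15 arrays stood for its locus. The seeds were whole germinated seeds of accession Col-0. They had been kept for 72 h at 4 °C, germinated at 22 °C under constant white light, and picked when the radicle had come through. They were then held in 10 µM abscisic acid (ABA), a plant hormone of seed maturation and drought, in darkness at 20 °C. The groups were 0 h, taken before incubation, and 2, 12, 24 and 72 h of incubation, with 3 arrays each, every array from its own pool of seeds of at least 2 plants. The title of the series is about germinated seeds regaining desiccation tolerance with ABA, a trait that these expression values do not measure. As no group kept in the same conditions but free of ABA was used here, the hormone, elapsed time, darkness and the change of temperature cannot be told apart.

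Linker histones bind the nucleosome where DNA enters and leaves it and help chromatin to fold into a denser state. H1.1 and H1.2 are the main variants of Arabidopsis and are made in most tissues. H1.3 is a shorter and more mobile variant, known in vegetative tissue from guard cells and from its rise under water deficit, ABA and low light.

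The values are log2 signals from Affymetrix arrays, normalized by the authors with RMA. A difference of 1 is therefore a doubling of signal. H1.3 rose at every incubation time, by 6.38 ± 0.70 (log2, SE, n = 3 per time) at 72 h against 0 h, whereas no change was called for H1.1 or H1.2 at any time. H1.3 differed between times over the whole course (moderated F test in limma, adjusted p = 3.55e-05), a result also obtained for 44.0% of all loci. The same test gave adjusted p = 0.573 for H1.1 and adjusted p = 0.884 for H1.2.

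One array stood apart and bears on every H1.3 value at 2 h. Across loci, 2 h replicate 2 correlated at r of 0.889 and 0.901 with replicates 1 and 3 of its time, while all other pairs of arrays of a single time reached 0.986 to 0.995. Its correlation was 0.838 to 0.844 with the 0 h arrays, 0.903 to 0.911 with 12 h, 0.903 to 0.907 with 24 h and 0.886 to 0.892 with 72 h. Its signals were also spread differently, with an interquartile range over loci of 2.89, against 3.73 to 4.12 on the other 14 arrays, and a lower quartile of 3.94, against 2.98 to 3.29. Why it stood apart was not tested. Results are given with this array and without it.

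H1.3, the stress-inducible variant, had signals of 3.23, 3.35 and 3.69 on the 0 h arrays. At 2 h replicates 1, 2 and 3 had signals of 5.77, 9.63 and 5.94. At 12 h the signals were 7.13, 6.72 and 7.12. The 0 h arrays were all below every later array, and at 2 h the replicate 2 array lay above the other two and above all 12 h arrays. At 24 h H1.3 had signals of 9.05, 9.49 and 9.36. At 72 h it had signals of 9.69, 9.89 and 9.83. No array of 72 h overlapped any of 24 h, and no array of 24 h overlapped any of 12 h. How many of all loci were separated between times in these ways is not given here. The 2 h replicate 2 value lay between the highest 24 h and the lowest 72 h value.

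**Figure D1:**
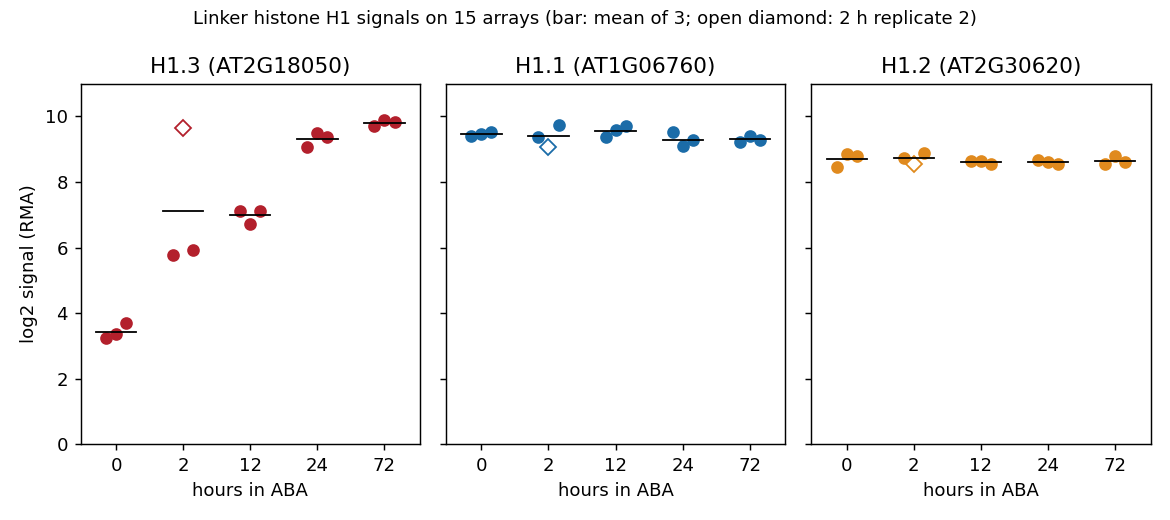
Log2 RMA signal of H1.3, H1.1 and H1.2 (vertical axis) on each array at 0, 2, 12, 24 and 72 h in ABA (horizontal axis, evenly spaced). Bars mark the mean of 3 arrays and the open diamond is 2 h replicate 2. H1.3 climbs to 9.80 at 72 h, against 3.43 at 0 h, while H1.1 stays between 9.06 and 9.75 and H1.2 between 8.46 and 8.89.

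Signals were not tested against background, so H1.3 at 0 h may lie at the floor of the array and its difference from that time may be understated. In whole seeds, more RNA per cell and more cells with the RNA cannot be told apart.

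Against 0 h, H1.3 rose by 3.69 ± 0.70 at 2 h (adjusted p = 0.00217), where 15.8% of loci were called in either direction. That call was lost when only the 6 arrays of 2 h and 0 h were fitted (adjusted p = 0.0935). H1.3 rose by 3.56 ± 0.70 at 12 h (adjusted p = 0.0017), where 25% of loci were called. The rise was 5.88 ± 0.70 at 24 h (adjusted p = 1.62e-05), where 36.6% were called. At 72 h the rise of 6.38 ± 0.70 had adjusted p = 6.86e-06, with 38.5% of loci called. By size of rise H1.3 ranked 120 among the 27981 loci at 2 h, 147 at 12 h, 54 at 24 h and 22 at 72 h. Each of these rises had 3 of 3 later arrays above all 0 h arrays. The share of all loci separated in this way is not given here.

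Without 2 h replicate 2 the H1.3 rise at 2 h was 2.43 ± 0.17 (adjusted p = 1.18e-07), smaller than with that array. The smaller SE follows from leaving out the array that stood apart, with 2 arrays left at 2 h, and is not a gain in precision. The rises at 12, 24 and 72 h kept their size, and their SE fell to 0.15, because the fit shares a single estimate of spread over all times. The percentage of loci called against 0 h in that fit was 19.1 at 2 h, 40.6 at 12 h, 49.1 at 24 h and 51.2 at 72 h. Among the 3 arrays of 2 h, H1.3 on replicate 2 exceeded the mean of replicates 1 and 3 by 3.78, a larger excess than at 99.8% of loci. On the same array H1.1 lay 0.49 below that mean and H1.2 lay 0.26 below it.

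**Figure D2:**
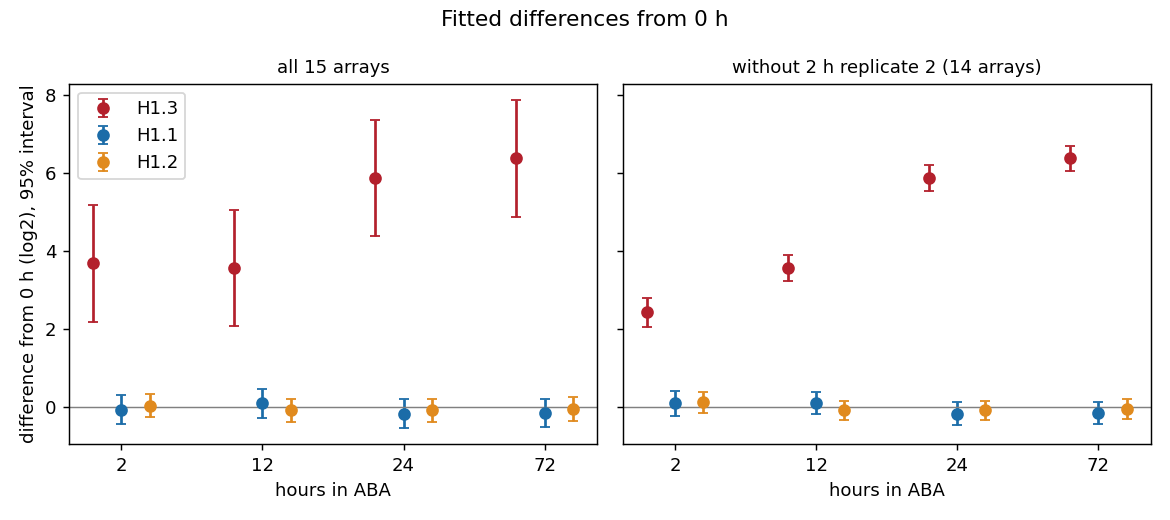
Fitted difference from 0 h (log2, vertical axis) at 2, 12, 24 and 72 h (horizontal axis) for H1.3, H1.1 and H1.2, with 95% intervals, from all 15 arrays (left) and without 2 h replicate 2 (right). The H1.3 interval at 72 h runs from 4.88 to 7.88 with all arrays and from 6.05 to 6.71 without that array. All intervals of H1.1 and H1.2 include 0.

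The steps between successive times show when H1.3 moved. From 12 h on, the signal was 2.31 ± 0.70 higher at 24 h than at 12 h, the rank 29 rise of that step, yet it missed the threshold (adjusted p = 0.0664; 6.56% of loci called). Without 2 h replicate 2 this step was called (adjusted p = 6.46e-07), in a fit that called 21.3% of loci for it. The step was also called without 2 h replicate 1 (adjusted p = 0.0351) or without 2 h replicate 3 (adjusted p = 0.0452). The 12 h signal differed from the 2 h signal by -0.12 ± 0.70 (adjusted p = 0.911; 4.89% called). Without 2 h replicate 2 the sign turned, and 12 h was higher than 2 h by 1.14 ± 0.17 (adjusted p = 5.25e-04, 15.3% called). The 72 h signal was 0.50 ± 0.70 above that of 24 h (adjusted p = 0.948; 3.32% called), and without 2 h replicate 2 this difference was called at adjusted p = 0.0441. With all arrays kept, the step to 24 h from 12 h was also called under an intensity trend (adjusted p = 0.0486), and both it and the step to 72 h were called when only the 6 arrays of each step were fitted (adjusted p = 4.09e-05 and 0.0439). The calls of the steps thus changed with that array and with other choices.

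By its mean signals H1.3 made a large part of its rise after 12 h, unlike the ABA response marker RD29B, which was near its final level within 2 h. From 2 h to 12 h the mean of H1.3 rose only without 2 h replicate 2. Measured on the log2 scale, H1.3 had covered 57.8% of its 72 h difference at 2 h, or 38.0% without 2 h replicate 2. It had covered 55.9% at 12 h and 92.1% at 24 h. Both ABA response markers listed, RD29B and RAB18, were higher at 72 h than at 0 h, by 7.33 ± 0.20 and 5.30 ± 0.35. RD29B had covered 97.7% of its own 72 h difference at 2 h, and 97.1% without that array. RAB18, an ABA-induced dehydrin gene, stood at 85.1% at 2 h, and at 74.4% without that array. In all, 141 loci rose by 4 or more at 72 h against 0 h. Their median share at 2 h was 82.8% without 2 h replicate 2, and 21 of them had a share below that of H1.3. At 12 h their median share was 97.0%, and 12 loci had a share below that of H1.3. These shares are a description, and the difference in timing between genes was not tested.

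The second probe set of H1.3 also rose from 0 h to 72 h, but differed at the step to 12 h from 2 h. That step was 0.49 ± 0.63 for the second probe set (limma, adjusted p = 0.592) and -0.12 for the first, called for neither. The means of the second probe set were 6.77 at 2 h, 7.26 at 12 h and 9.50 at 24 h. Its signals were 2.76, 2.80 and 3.24 on the 0 h arrays and 9.89, 10.12 and 10.08 on the 72 h arrays. At 2 h replicates 1, 2 and 3 had 5.34, 8.98 and 6.01, so replicate 2 was again the highest of its time. Tested among all 35986 probe sets, the second probe set rose by 7.10 ± 0.63 at 72 h (adjusted p = 9.98e-07) and by 3.84 ± 0.63 at 2 h (adjusted p = 7.22e-04). Its step to 24 h from 12 h was 2.23 ± 0.63 (adjusted p = 0.0476). The reference table lists 2 transcripts at the locus. Which of them each probe set detects is not given in the sources used here.

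**Figure D3:**
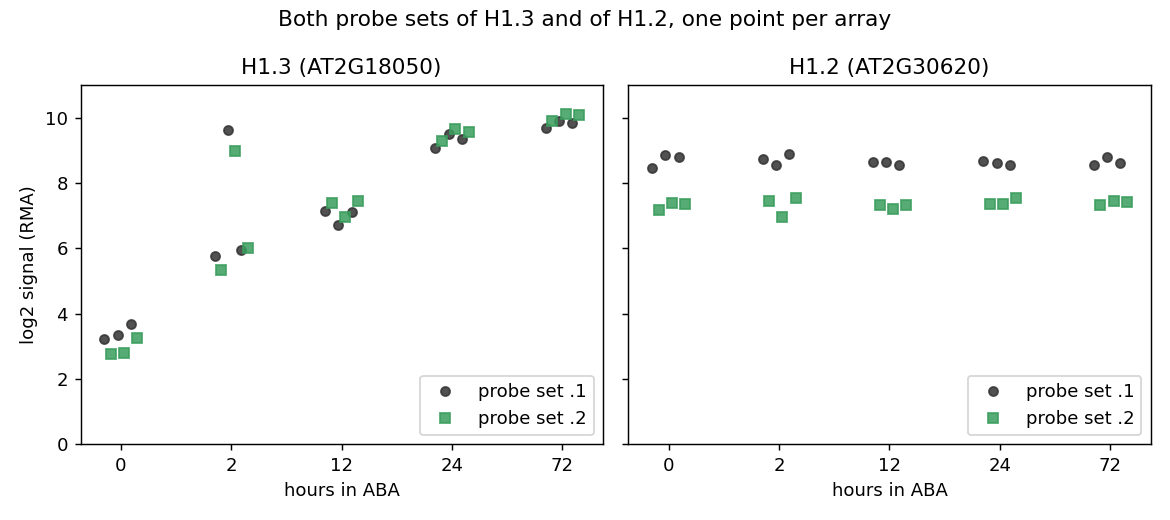
Log2 RMA signal (vertical axis) of both probe sets of H1.3 (left) and H1.2 (right) on each array, against hours in ABA (horizontal axis, evenly spaced). Both H1.3 probe sets climb from 0 h to 72 h with a high 2 h replicate 2, and both H1.2 probe sets stay level.

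H1.1, a main variant, had signals of 9.39, 9.47 and 9.54 at 0 h and of 9.36, 9.06 and 9.75 at 2 h. At 12 h they were 9.38, 9.58 and 9.70. At 24 h they were 9.52, 9.10 and 9.27, and at 72 h 9.22, 9.39 and 9.29. Each of the 5 groups overlapped every other. Its means differed from 0 h by -0.08 at 2 h, 0.09 at 12 h, -0.17 at 24 h and -0.16 at 72 h, each ± 0.17. None was called by limma, and none had an unadjusted p under 0.05. The 95% interval of the 72 h difference ran from -0.53 to 0.21. With arrays weighted by quality the H1.1 step to 24 h from 12 h was -0.35 and was called (adjusted p = 0.0157).

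H1.2, the other main variant, had signals of 8.46, 8.84 and 8.80 at 0 h. They were 8.73, 8.55 and 8.89 at 2 h and 8.65, 8.64 and 8.54 at 12 h. At 24 h they were 8.66, 8.62 and 8.55, and at 72 h 8.54, 8.80 and 8.60. Here too each group overlapped every other. Its differences from 0 h were 0.02 at 2 h and -0.09 at 12 h, -0.09 at 24 h and -0.06 at 72 h, each ± 0.14, and none was called or had an unadjusted p under 0.05. The interval of the 72 h difference ran from -0.35 to 0.24. Its 5 time means spanned 0.12, less than those of all but 0.264% of loci, and those of H1.1 spanned 0.26, with 4.91% of loci below. H1.3 spanned 6.38, more than 99.9% of loci. The second H1.2 probe set was also level, with means of 7.40 ± 0.06 at 72 h and 7.31 ± 0.12 at 0 h (SD, n = 3 each). These results do not show that H1.1 or H1.2 was constant, only that any change at 72 h lay within those intervals.

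The unequal change of the variants was tested within arrays, which removes any factor that shifts all signals of an array alike. Levels of different probe sets are not comparable, so only changes of the difference from its 0 h mean are given. H1.3 minus H1.1 was higher in incubated seeds than at 0 h by 4.96 (exact permutation test of 12 against 3 arrays, two-sided p = 0.0044, the smallest that this test can give). For H1.3 minus H1.2 it was 4.93 with the same p. Both pairs were compared without adjustment, and they share the H1.3 values, so their results are not independent. All 12 incubated arrays lay above all 3 arrays of 0 h for both pairs. The H1.3 signals alone were already separated in this way, so the test largely restates the rise of H1.3. At 72 h the 3 arrays read 6.51, 6.54 and 6.57 for H1.3 minus H1.1, and the 3 arrays of 0 h read -0.12, -0.08 and 0.20. At 2 h replicates 1, 2 and 3 read 2.45, 6.61 and 2.23, so the position of replicate 2 was not removed by a comparison within the array. A single time against 0 h has 3 arrays on each side and cannot go below p = 0.1 in an exact test.

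**Figure D4:**
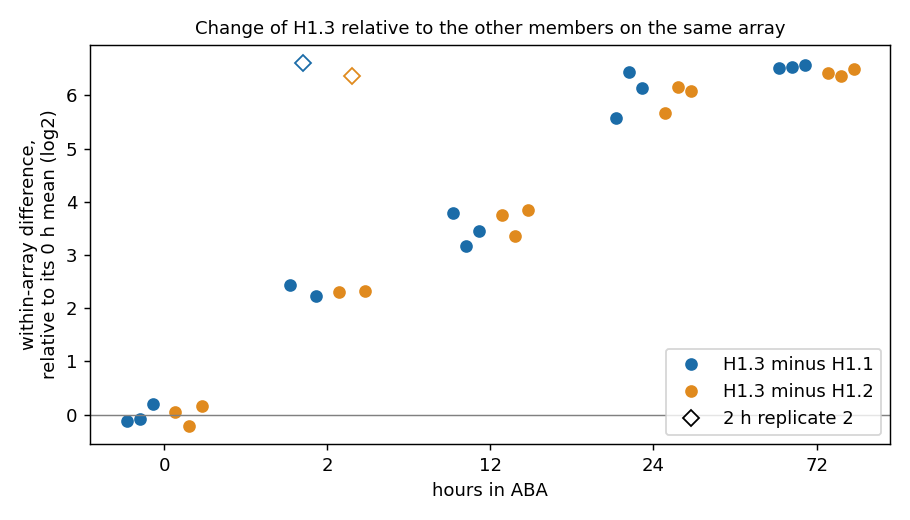
Difference between H1.3 and H1.1 or H1.2 on the same array, relative to its mean at 0 h (log2, vertical axis), against hours in ABA (horizontal axis, evenly spaced). Points are arrays and open diamonds mark 2 h replicate 2. Every incubated array lies at 2.23 or above, and the 0 h arrays lie between -0.21 and 0.20.

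By the rule for likeness, the loci whose course was closest to that of H1.3 were APS4 (AT5G43780), an ATP sulfurylase gene of sulfate assimilation, with r = 0.987 over the 15 arrays, AT1G06265 (r = 0.986) and AT4G36840 (r = 0.985). The choice was among 7880 loci whose time means spanned at least 1, and 546 of these had r above 0.9 with H1.3. Without 2 h replicate 2 these 3 loci had r from 0.984 to 0.988. APS4 had a signal of 6.33 on 2 h replicate 2, against 5.11 and 5.28 on replicates 1 and 3, so it too was high on that array. APS4 rose by 1.69 ± 0.24 at 72 h against 0 h (adjusted p = 6.82e-05), a far smaller rise than that of H1.3. Arrays of a single time share their treatment, so these correlations mostly describe the order of the time means.

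Genes of other chromatin proteins give the setting of the H1 values at 72 h against 0 h. Calls are by limma over all loci, of which 18.4% were higher and 20.2% lower at 72 h, and the median of all loci was -0.02. The share of all loci at an unadjusted p under 0.05 is not given. List counts at that threshold, here and below, therefore cannot be set against it. Without 2 h replicate 2, 51.2% of all loci were called at 72 h against 0 h in either direction. Their split into higher and lower is not given, so list counts from that fit have no share by direction. H1.3 alone of the 3 H1 genes was higher and none was lower. The H1 globular domain also occurs in proteins that are not linker histones, such as the telomere repeat binding factors. Of 12 further loci listed for that domain, 5 were higher and none lower (6 and 1 at an unadjusted p under 0.05), with a median of 0.41. AT1G54260 rose by 0.99 ± 0.15, AT1G17520 by 0.91 ± 0.13 and AT5G08780 by 0.72 ± 0.19, all far less than H1.3. When 2 h replicate 2 was left out, 6 of these 12 loci were called higher and 1 lower.

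HMGB proteins are small, mobile chromatin proteins that bend DNA and share linker DNA with H1. Of 6 HMGB genes 3 were higher and 3 lower, with a median of 0.07. HMGB1 rose by 1.69 ± 0.27 (adjusted p = 1.89e-04), to 9.10 ± 0.05 at 72 h against 7.41 ± 0.10 at 0 h (SD, n = 3 each). HMGB2 rose by 0.90 ± 0.13, and HMGB6 changed by -1.20 ± 0.18 (adjusted p = 1.02e-04).

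Core histones, which form the nucleosome itself, moved mostly down. Of 46 loci listed as H2A, H2B, H3 or H4, 26 were lower and 1 was higher, or 56.5% and 2.17% of the list, with a median of -0.62. Among 13 H2A loci 7 were lower (median -0.96) and none higher, or 8 and 1 at an unadjusted p under 0.05. HTA8 changed by -2.34 ± 0.28 (adjusted p = 1.36e-05), HTA6 by -2.06 ± 0.14 and HTA13 by -1.63 ± 0.13. Among 8 H4 loci 6 were lower and none higher, also at an unadjusted p under 0.05 (median -0.77), led by AT3G45930 at -1.23 ± 0.19.

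Histone H3 comes in a replicative form, H3.1, laid down when DNA is copied, and a replacement form, H3.3, laid down at any time. All 5 loci that the reference table names as H3.1 were lower at 72 h, with differences from -2.33 to -1.24. None of the 3 H3.3 loci was called by limma at 72 h (-0.22 to 0.28, and 1 had an unadjusted p under 0.05). Earlier, the H3.3 locus AT5G10980 was called lower than at 0 h, by -0.50 ± 0.13 at 12 h (adjusted p = 0.0121) and -0.55 ± 0.13 at 24 h (adjusted p = 0.0042). AT1G09200, for H3.1, had signals of 6.87, 6.50 and 6.68 at 72 h, against 8.88, 9.19 and 8.96 at 0 h (-2.33 ± 0.20, adjusted p = 8.23e-07). The AT1G09200 groups did not overlap, but the share of all loci whose groups did not overlap is not given. CENH3 (AT1G01370, HTR12), the H3 of centromeres, changed by -2.08 ± 0.33. MGH3, the H3 of male gametes, differed by -0.16 ± 0.18 and was not called (limma, adjusted p = 0.576). Of all 14 H3 loci 6 were lower and none higher, or 6 and 1 at an unadjusted p under 0.05. Without 2 h replicate 2, 1 H3 locus was called higher and 6 lower, and 1 H2A locus higher and 8 lower.

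Among 11 H2B loci 7 were lower and 1 was higher (median -0.52). AT3G53650 changed by -4.03 ± 0.45 (adjusted p = 8.80e-06), AT2G37470 by -2.52 ± 0.17 and AT3G09480 by -2.25 ± 0.29. The rise was at AT1G08170, with signals of 4.84, 4.74 and 5.23 at 72 h, against 2.76, 3.68 and 3.24 at 0 h (1.71 ± 0.40, adjusted p = 0.0035). At 2 h AT1G08170 had signals of 5.43, 7.39 and 6.49, above all 0 h arrays, and its fitted rise was 3.21 ± 0.40. So AT1G08170 had higher signals at 2 h than at 72 h, also on replicates 1 and 3, the reverse of the order seen for H1.3. The difference between 2 h and 72 h was not tested for AT1G08170, and its fitted rise without 2 h replicate 2 is not given. The fit on the other 14 arrays called 2 H2B loci higher and 8 lower.

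**Figure D5:**
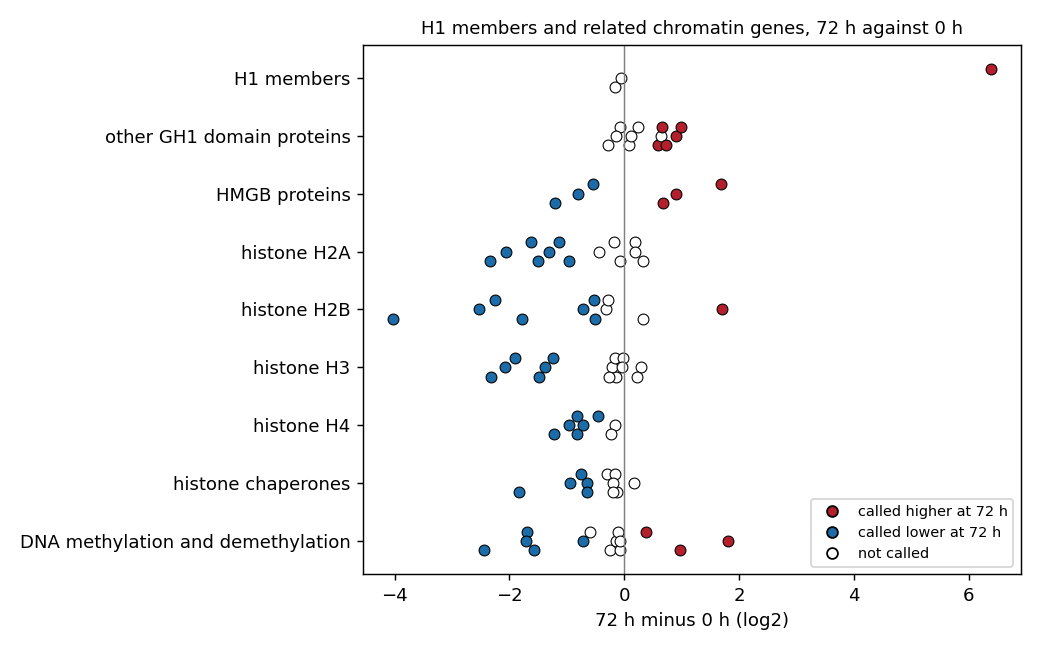
Difference between 72 h and 0 h (log2, horizontal axis) for each locus of the H1 genes and of 8 lists of chromatin genes (rows), without the marker lists. Filled points were called higher (red) or lower (blue) at an adjusted p under 0.05 and open points were not called. H1.3, at 6.38, lies to the right of every other locus drawn, while the core histone rows lie mostly to the left of 0.

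Histone chaperones load histones onto DNA. Of 11 listed, 5 were lower and none higher, also at an unadjusted p under 0.05 (median -0.29). They included FAS1, of the assembly factor that acts behind the replication fork, at -1.84 ± 0.22 (adjusted p = 1.33e-05), NRP1 at -0.94 ± 0.19 and ASF1B at -0.75 ± 0.18. Leaving out 2 h replicate 2 gave 6 chaperones lower and none higher. Linker histones limit the access of DNA methyltransferases to packed chromatin. Of 14 genes of DNA methylation and its removal, 5 were lower and 3 higher (median -0.19). CMT3, a plant methyltransferase guided by histone methylation, changed by -2.45 ± 0.29 (adjusted p = 1.56e-05). SUVH4, the histone methyltransferase that works with CMT3, changed by -1.72 ± 0.20. DRM2, the methyltransferase of the RNA-directed pathway, rose by 1.80 ± 0.21 (adjusted p = 1.35e-05). Leaving out 2 h replicate 2 gave 6 of these 14 genes lower and 3 higher.

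Marker genes of cells and tissues moved over the same course, and their part in the H1.3 rise was not tested. Guard cells are a known site of H1.3. Of 7 markers of guard cells and their lineage none was higher at 72 h and 5 were lower, also at an unadjusted p under 0.05. The lower ones were KAT1, HT1, MUTE, SPCH and TMM. MYB60 (2.90 at 72 h against 2.79 at 0 h) and FAMA (3.91 against 3.53) had low signals and were not called. The mean signal of this list was 4.03 to 4.24 on the 72 h arrays, against 4.87 to 5.04 on the 0 h arrays. When 2 h replicate 2 was left out, 1 of the 7 was called higher and 5 lower. Of 5 seed storage and oil body markers, 3 were higher and none lower, also at an unadjusted p under 0.05, with OLEO2 up by 6.96 ± 0.34. Their mean was 8.60 to 9.07 at 72 h, against 5.54 to 5.93 at 0 h. On the 2 h arrays replicates 1, 2 and 3 had means of 7.52, 10.8 and 8.37, so replicate 2 was the highest for this list as for H1.3. Of 3 endosperm markers 1 was higher at 72 h and none was lower, also at an unadjusted p under 0.05. The endosperm list mean was 8.73 to 8.99 at 72 h, against 8.29 to 8.36 at 0 h, although the median difference of its loci was -0.56. In the fit that leaves out 2 h replicate 2, 1 of these 3 was called higher and 1 lower, and 4 of the 5 seed storage and oil body markers were called higher and none lower.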

How the data were processed

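The deposited matrix holds log2 expression values of 15 arrays, which the authors made with RMA, per the submitters' processing notes. RMA subtracts background, quantile-normalizes probes across arrays and combines them into probe sets. The deposited values of 2 h replicate 2 were nevertheless spread differently from those of the other arrays. For the array design, the probe set definition, the RMA version and the build nothing is given in the sources used here, so no coordinates or sequences are printed. Each labelling started from 50 ng of total RNA, per the labels. The number of arrays limits the precision.

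Probe sets were reduced to 27981 loci by the highest mean. limma 3.58.1 in R 4.3.3 fitted all loci on 15 arrays with a mean per time and no covariate. Tests were two-sided, with Benjamini-Hochberg adjustment over all loci and calls at adjusted p under 0.05. Within-array differences were tested exactly with SciPy 1.17.1. The fits were tested on simulated data. Replicates are separate seed pools, per the labels. The main fit did not pair arrays by replicate number. Deviations of same-numbered arrays correlated at -0.17 to 0.27, above 0.1 in 1, 6 and 4 of 10 pairs for replicates 1, 2 and 3. This check cannot settle whether arrays were paired.

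The members, lists and tests were chosen with earlier results of these data known. Named genes were the members, up to 3 called loci per list with the largest difference at 72 h and 1 in the other direction, AT1G08170, CENH3, MGH3, RD29B and RAB18, and the 3 loci most like each member. Of 106 list loci, 30 have no symbol in the reference table (TAIR10.1), were listed from general knowledge of the families and are printed by locus.

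Alternatives were repeated quantile normalization, centring, a filter on dim loci, an intensity trend, array weights, a replicate block, every probe set, a stricter threshold, only the arrays compared, leaving out each array and, added after the data were seen, the other probe set of each member. The motif search of promoters was not done because promoter sequences were not used here.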

Additional observations from a re-analysis of the deposited data

How the results depend on the processing

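The rises of H1.3 against 0 h at 12, 24 and 72 h and its F test stayed called in every setting run, with 72 h differences from 6.28 to 7.10. At 2 h the rise of 3.69 ended its call when only the 6 arrays compared were fitted (adjusted p = 0.0935), and was 2.43 to 4.36 with an array left out. The H1.3 step to 24 h from 12 h was called with an intensity trend (2.31), array weights (2.31), only the 6 arrays compared (2.31) and the other probe set (2.23), and was 2.18 to 2.44 with an array left out. The step to 72 h from 24 h was called with only its 6 arrays (0.50), and was 0.38 to 0.60 with an array left out. The 12 h against 2 h difference turned to 1.06 with array weights and was then called (limma, adjusted p = 0.0104). It turned to 0.49 with the other probe set, and ran from -0.80 to 1.14 with an array left out. H1.1 was called with array weights over the course (adjusted p = 0.0331) and at 24 h against 12 h (-0.35). The cause was not tested.

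The other turns of sign were in differences near 0 that were called in no setting. H1.1 at 2 h against 0 h was 0.041 with centring and 0.16 with array weights, and -0.26 to 0.087 with an array left out. At 72 h against 24 h it was -0.017 with centring and -0.086 to 0.12 with an array left out. H1.2 at 72 h against 0 h was 0.013 with repeated quantiles, 0.088 with the other probe set and -0.18 to 0.015 with an array left out. At 24 h against 12 h it was 0.042 with repeated quantiles, 0.070 with centring, 0.14 with the other probe set and -0.037 to 0.026 with an array left out. The other probe set gave H1.2 -0.000218 at 2 h and 0.11 at 24 h against 0 h, and -0.020 at 72 h against 24 h. With an array left out H1.2 was -0.097 to 0.11 at 2 h against 0 h and -0.036 to 0.093 at 72 h against 24 h.

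A replicate block changed no call of a member, with H1.3 at 6.38 for 72 h against 0 h, and left the related lists at 18 loci higher and 44 lower at 72 h. By deviations, 6 of 15 arrays correlated best with an array of their own number. Over all settings 16 to 25 loci of these lists were higher and 41 to 51 lower. Centring moved the median of all loci by 0.12 at 2 h against 0 h and by -0.17 at 12 h against 2 h. Leaving out an array leaves 2 at its time, assumed to vary like the other times.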

Other observations

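The courses closest to H1.1 and H1.2 were sought among the 7880 loci whose time means spanned at least 1, so loci as level as these genes were not among the candidates. For H1.1 the highest correlation over the 15 arrays was r = 0.828, at AT4G34780 (SAUR2), followed by CYP96A3 (r = 0.813) and the protein kinase gene NP3 (r = 0.794). For H1.2 it was r = 0.608, at the dehydrin gene ERD10, followed by TMAC2 (r = 0.598) and AT1G64380 (r = 0.587). No candidate reached r above 0.9 with either gene. Neither gene was called over the course with all 15 arrays, so this cannot be compared with the 546 of H1.3. Whether these highest correlations among 7880 candidates arose by chance was not tested. ERD10 changed by -1.99 ± 0.59 at 72 h against 0 h (limma, adjusted p = 0.0156), and TMAC2 by -0.27 ± 0.58 (adjusted p = 0.803).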
